A study of Mus musculus with 4 samples.

Results

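Protein kinase A is the enzyme through which most of the effects of cyclic AMP reach the cell, and the 10 genes described here encode its parts and its direct partners. They are the catalytic subunits Prkaca and Prkacb, the regulatory subunits Prkar1a, Prkar1b, Prkar2a and Prkar2b, the protein kinase inhibitors Pkia, Pkib and Pkig, and the anchor protein Akap12. They were chosen by symbol, read from the amplicon names, and all 10 were found among the 23930 amplicons of the table. The cells were primary progenitor cells from subcutaneous tissue of C57BL/6 mice that carry floxed Gnas, the gene of the stimulatory G protein alpha subunit. The control group had the genotype wild type and was infected with Ad-GFP, and the mutant group had the genotype Gnas-/- and was infected with Ad-Cre. Both groups carried the floxed gene and spent 7 days in osteogenic medium. Each group held 2 libraries, called control 1, control 2, mutant 1 and mutant 2. The groups also differ in the virus, so an effect of the virus and one of losing Gnas cannot be told apart. The labels leave unsaid whether libraries are separate mice or cultures, and what share of the cells took up the virus. The p-values therefore reflect the spread of these 4 libraries alone.

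At rest, protein kinase A is a complex of regulatory and catalytic subunits in which the regulatory subunits hold the kinase inactive. The stimulatory G protein activates adenylyl cyclase, the cyclic AMP that is made binds the regulatory subunits, and the catalytic subunits become active. The protein kinase inhibitors bind free catalytic subunits, and anchor proteins tether the complex at particular places in the cell. In mesenchymal cells the kinase is known to phosphorylate the Gli transcription factors and thereby to restrain Hedgehog signalling.

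The inhibitory members share a short site that enters the cleft of the catalytic subunit where a substrate would lie, and its codons are shown because they show how these members resemble each other. The stretches of 42 coding bases are from the mouse reference transcripts (GENCODE M21, GRCm38) and not from these libraries. Capitals mark 4 codons, namely 2 for arginine, any codon, and the codon at the place where a substrate carries the amino acid to be phosphorylated.
Prkar1a: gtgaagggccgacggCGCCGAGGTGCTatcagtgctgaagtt
Prkar1b: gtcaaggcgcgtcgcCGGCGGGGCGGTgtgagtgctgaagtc
Prkar2a: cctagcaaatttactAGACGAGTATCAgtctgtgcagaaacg
Prkar2b: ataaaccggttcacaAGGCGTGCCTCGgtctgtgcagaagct
Pkia: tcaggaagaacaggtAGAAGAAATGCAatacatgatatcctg
Pkib: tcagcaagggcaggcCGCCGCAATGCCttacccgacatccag
Pkig: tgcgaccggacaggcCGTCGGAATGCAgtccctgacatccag

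The last capital codon is GCT in Prkar1a, GCA in Pkia, GCC in Pkib and GCA in Pkig, all of them codons for alanine, which cannot be phosphorylated. It is GGT, a codon for glycine, in Prkar1b. It is TCA in Prkar2a and TCG in Prkar2b, both codons for serine, and type II regulatory subunits are known to be phosphorylated there by the catalytic subunit. These stretches lie within coding exons at chr11:109660092-109660133 (plus strand) for Prkar1a, chr5:139108520-139108561 (minus strand) for Prkar1b, chr3:7437404-7437445 (plus strand) for Pkia, chr10:57728158-57728199 (plus strand) for Pkib and chr2:163721190-163721231 (plus strand) for Pkig. Those of Prkar2a (chr9:108714281-108716876, plus strand) and Prkar2b (chr12:31993770-32038649, minus strand) each run over an exon junction, so these intervals include an intron. The other members are Prkaca on chromosome 8 at 83972993 to 83996443 (plus strand), Prkacb on chromosome 3 at 146729574 to 146812990 (minus strand) and Akap12 on chromosome 10 at 4266380 to 4359470 (plus strand). Positions are those of the annotation, and for the deposited table the build and the amplicon positions are not stated in the sources at hand. Of the 10 members, only Prkar1b has exons that overlap those of another annotated gene, the noncoding Gm15672 on the same strand, and reads from the shared part would not be told apart.

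The values are RPM, which scale the reads of each amplicon by the total of its library. The libraries held 13483518 to 18455811 reads. Each gene was read through 1 amplicon, so a level depends on how well that amplicon works and is compared here between libraries and not between genes. No row named Gnas, the targeted gene, was at hand, so the labels could not be checked by it. The controls were less alike than the mutants: Pearson's r of log2(RPM + 1) across 11638 genes, which are not independent replicates, was 0.916 between the controls and 0.981 between the mutants. Between a control and a mutant it ran from 0.885 to 0.909. Control 1 was thus nearly as unlike control 2 as it was unlike mutant 1 (0.909). Control 2 stood apart in macrophage markers, with 972 RPM summed over 14 markers against 49.4 in control 1 and 33.6 and 20.5 in the mutants. Xist, the RNA of the inactive X chromosome, stood at 165 RPM (control 1), 0 (control 2), 395 (mutant 1) and 419 RPM (mutant 2). The Y-linked Ddx3y stood at 61.4 and 124 RPM in the control libraries and 26.9 and 12.5 RPM in the mutants. By these values the controls were not repeats of 1 RNA sample. Xist was also higher and Ddx3y lower in both mutants than in both controls, so the groups differ in these sex-linked RNAs too. The part of the sex of the cells in the differences between the groups was not tested. The 13 measured mesenchymal progenitor markers summed to 17925 and 25722 RPM in the controls and 35964 and 40454 RPM in the mutants. The 7 measured osteoblast markers, which share Col1a1 with that list, summed to 5375 and 9912 RPM against 16730 and 21106 RPM. Col1a1 made up nearly all of this sum, at 5332 and 9875 RPM in the controls and 16666 and 21009 RPM in the mutants. It was also the highest of the mesenchymal markers, among which Col1a2 stood at 3843 and 3184 against 7507 and 7512 RPM. The part of these shifts in the values of the members was not tested. Thy1 (2060 to 3982 RPM), Pdgfra (92.1 to 128 RPM) and Ly6a (537 to 1162 RPM) were present in all libraries, while Dpp4 did not pass 1.19 RPM and Cd34 stood at 0.054 RPM in control 1 and 7.19 to 12.6 RPM in the other libraries.

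Among the genes of protein kinase A, some stood higher and some lower in the mutant libraries. The inhibitor gene Pkia stood 3.38-fold higher in the mutants and the regulatory subunit gene Prkar1b 2.11-fold lower, with Akap12 1.65-fold higher, and the libraries of the groups did not overlap for these 3, as for 51.8% of all tested genes. For the regulatory subunit gene Prkar1a both mutants lay between the controls. None of these differences passed the threshold, an adjusted p below 0.05 over all 11638 tested genes (limma on log2(RPM + 1), Benjamini-Hochberg). Of the 10 members 9 reached 1 RPM in at least 2 libraries and were tested, and 0 of the 9 were called, where 2.3% of all tested genes were called. At an unadjusted p below 0.05 there were 3 members (Pkia, Prkar1b and Akap12), against 17.9% of all tested genes. Of the count tests on whole reads, edgeR called 0 members (0.799% of all genes) and DESeq2 called Pkia and Prkar1b (9.37% of all genes). The median log2 fold change was 0.40 over the 9 tested members and 0.08 over all tested genes. In RNA of whole cultures, fewer cells of a type and less RNA per cell cannot be told apart.

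**Figure D1:**
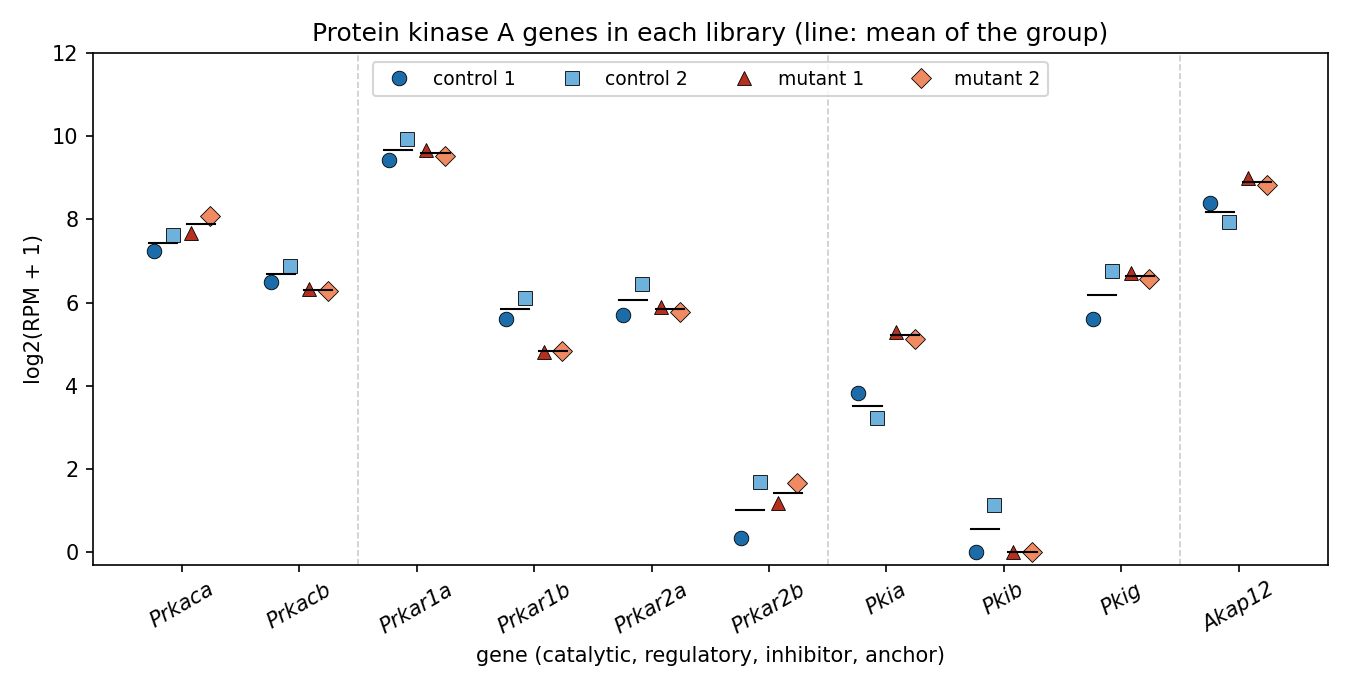
Level of each of the 10 genes in each library, as log2(RPM + 1) on the vertical axis, with genes ordered by role on the horizontal axis and a line at the mean of each group of 2 libraries. Pkia (8.38 to 13.1 RPM in the controls, 34.1 to 38.5 in the mutants) and Prkar1b (47.5 to 68.3 in the controls, 27.1 to 27.7 in the mutants) have the widest gaps between groups, and the control symbols lie farther apart than the mutant ones for most genes.

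The catalytic subunit genes stood on opposite sides of the controls, and neither passed the test. Prkaca, which encodes the widely expressed alpha form of the kinase, stood at 151 RPM (control 1), 197 (control 2), 204 (mutant 1) and 271 RPM (mutant 2). Both mutants were above both controls, though mutant 1 and control 2 nearly met. The log2 fold change was 0.44 (SE 0.26, 95% interval -0.21 to 1.10, adjusted p = 0.433). After scaling by TMM factors control 2 stood at 210 and mutant 1 at 198 RPM, so that the groups overlapped.

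Prkacb, which encodes the beta form, stood at 89.2 and 118 RPM in the control libraries and 80.0 and 76.6 RPM in the mutants. Both mutants were below both controls, by a little in the case of control 1. Its log2 fold change was -0.38 (SE 0.23, 95% interval -0.97 to 0.20, adjusted p = 0.448). Prkx, an X-linked kinase gene related to the catalytic subunits and no member of the 10, stood at 19.7 and 14.4 RPM in the control libraries and 13.5 and 9.02 RPM in the mutants (adjusted p = 0.452). The part of the sex of the cells in the Prkx values was not tested.

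The regulatory subunit genes differed in how they stood between the groups. Prkar1a encodes the type I alpha subunit, whose loss is known to leave the kinase active without cyclic AMP. It stood at 688 RPM (control 1), 976 (control 2), 811 (mutant 1) and 730 RPM (mutant 2). Both mutants lay between the controls, with a log2 fold change of -0.09 (SE 0.28, 95% interval -0.79 to 0.61, adjusted p = 0.899). That interval does not show equal levels, and the value was 0.16 without control 2.

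Prkar1b, the type I beta subunit gene, is best known from the nervous system. It stood at 47.5 RPM (control 1), 68.3 (control 2), 27.1 (mutant 1) and 27.7 RPM (mutant 2). The mutants were nearly alike and both lay well below the lower control. The means were 57.9 ± 14.7 and 27.4 ± 0.377 RPM (SD, n = 2 libraries per group), a log2 fold change of -1.03 (SE 0.27, 95% interval -1.71 to -0.35). This did not pass over all genes (limma adjusted p = 0.146). DESeq2 gave -1.18 and called it (adjusted p = 0.0236), and edgeR gave -1.16 and did not (adjusted p = 0.157). Over the 15 alternatives the value ranged from -1.29 to -0.77, always negative. It was -1.29 without control 1 and -0.77 without control 2. Control 2 was the library with the most macrophage signal, and the part of macrophages in the Prkar1b values was not tested.

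The type II genes did not separate the groups. Prkar2a stood at 50.7 and 86.2 RPM in the control libraries and 58.6 and 53.9 RPM in the mutants, so that both mutants lay between the controls (log2 fold change -0.23, 95% interval -1.02 to 0.56, adjusted p = 0.746). Without control 2 it was 0.15. Prkar2b, the beta form that is prominent in fat and brain, was close to the limit of detection. It had 5, 30, 22 and 32 reads in control 1, control 2, mutant 1 and mutant 2, or 0.271, 2.23, 1.26 and 2.15 RPM. The exact 95% Poisson intervals, which cover counting error only, were 0.088 to 0.632 RPM in control 1 and 1.5 to 3.18 RPM in control 2, so the controls differed from each other by more than counting error. The log2 fold change was 0.40 (95% interval -1.01 to 1.81, adjusted p = 0.754), and -0.27 without control 1. The 9 adipocyte markers measured alongside summed to 124 and 130 RPM in the controls and 153 and 179 RPM in the mutants. Lpl made up most of this sum, at 92.4 and 78.7 RPM in the controls and 121 and 110 RPM in the mutants. In every library 4 of the 9 stayed below 1 RPM. Cebpa stood lower in both mutants than in both controls, and Pparg and Plin4 stood higher. The part of fat cells in the Prkar2b values was not tested.

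For 2 of 4 pairs of related genes, the ratio of the pair was nearly equal in the controls and higher in both mutants. No such share was worked out for other pairs of genes, and 51.8% of all single tested genes had groups that do not overlap. Prkaca, Prkacb and Prkar1b were among those, so these ratios in part restate their values. The count of pairs is therefore no result about these genes. A ratio of 2 amplicons carries their unequal efficiency, so its size is not a ratio of molecules, but it can be compared across libraries and does not depend on the scaling of a library. Prkaca to Prkacb was 1.69 (control 1), 1.67 (control 2), 2.55 (mutant 1) and 3.54 (mutant 2). Both mutants lay above the controls, 0.84 higher on the log2 scale (control 0.75 ± 0.01, mutant 1.59 ± 0.34, SD, n = 2), a 1.78-fold ratio. Prkar1a to Prkar1b was 14.5 and 14.3 in the controls and 29.9 and 26.4 in the mutants. The mutants stood apart here too, by 0.96 on the log2 scale (control 3.85 ± 0.02, mutant 4.81 ± 0.13), a 1.95-fold ratio.

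Leaving out each library in turn gave 0.60 to 1.07 for the catalytic pair and 0.87 to 1.05 for the type I pair. The type II pair, Prkar2a to Prkar2b, was 187, 38.7, 46.5 and 25.03 in control 1, control 2, mutant 1 and mutant 2, and its groups overlapped. Its highest value rests on the 5 reads of Prkar2b in control 1. The inhibitor pair, Pkia to Pkig, was 0.273 and 0.0784 in the controls and 0.371 and 0.366 in the mutants. The mutants were above both controls, by 1.33 on the log2 scale, with 0.43 when control 2 was left out. With 2 libraries against 2 the smallest two-sided p of an exact permutation test is 0.333, so no ratio could pass. The 3 ratios with groups that do not overlap had that p (0.444 adjusted over the 4 ratios), and the type II pair had 0.667.

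**Figure D2:**
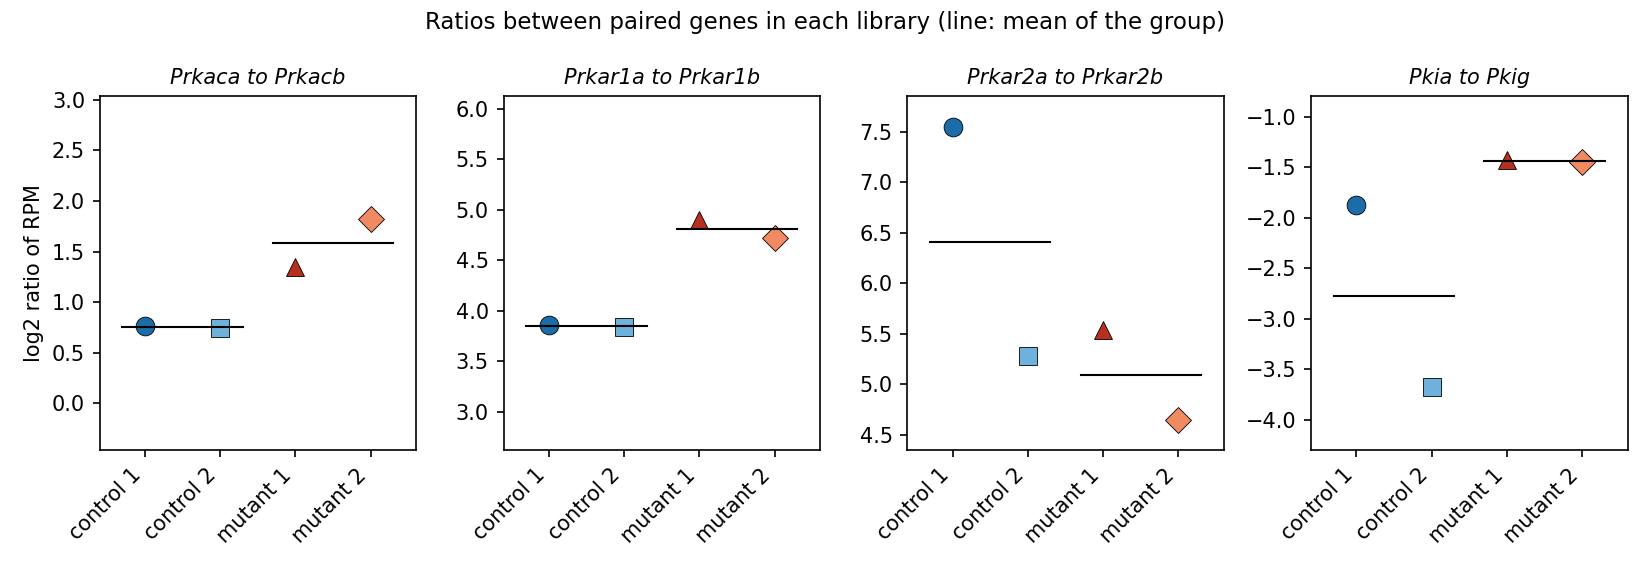
Log2 ratio of RPM (vertical axis) between paired genes in each of the 4 libraries, with a line at the mean of each group; the 4 axes differ in position but span the same range. The control symbols coincide for Prkaca to Prkacb and for Prkar1a to Prkar1b, with both mutants above them, and lie far apart for the other pairs.

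Among the inhibitor genes, Pkia had the largest difference of the 9 tested members. It encodes the alpha inhibitor, a small protein known to block the active site of the catalytic subunit and to carry it out of the nucleus. It stood at 13.1 RPM (control 1), 8.38 (control 2), 38.5 (mutant 1) and 34.1 RPM (mutant 2), from 113 to 672 reads a library. The lower mutant was well above the higher control. The means were 10.7 ± 3.35 and 36.3 ± 3.12 RPM (SD, n = 2), a 3.38-fold ratio and a log2 fold change of 1.69 (SE 0.32, 95% interval 0.89 to 2.49). It did not pass over all genes (limma adjusted p = 0.0733; edgeR 0.0812), and DESeq2 called it (1.68, adjusted p = 0.000398). Over 15 alternatives the value lay between 1.40 and 1.99. It was 1.99 without control 1 and 1.40 without control 2.

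Skeletal muscle and brain are known to be rich in Pkia, so markers of those cells are given beside it. The 9 skeletal muscle markers summed to 59.6 and 118 RPM in the controls and 51.3 and 129 RPM in the mutants. Of these, Myod1, Pax7 and Ckm were at 0 in every library, while Tnnt3 stood with Pkia, at 1.57 and 3.26 RPM against 8.48 and 13.2 RPM (log2 fold change 1.81, limma adjusted p = 0.119). The 8 neuron and Schwann cell markers summed to 33.3 and 39.2 RPM in the controls and 68.0 and 60.7 RPM in the mutants, with Snap25 and Rbfox3 at 0 throughout. Among them S100b stood at 1.08 and 2.89 RPM against 12.9 and 14.9 RPM (log2 fold change 2.39, limma adjusted p = 0.066), and Tubb3, the bulk of the sum, at 31.3 and 35.6 against 53.3 and 44.7 RPM. For these 3 genes, as for Pkia, both mutants were above both controls. The part of these cells in the Pkia values was not tested.

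Pkig, the gamma inhibitor gene, is widely expressed. It stood at 48.0 RPM (control 1), 107 (control 2), 104 (mutant 1) and 93.1 RPM (mutant 2). Only control 1 was low, and the other 3 libraries were alike. The log2 fold change was 0.45 (SE 0.41, 95% interval -0.58 to 1.48, limma adjusted p = 0.615). It thus turned on which control was kept, at -0.12 without control 1 and 1.02 without control 2.

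Pkib, the beta inhibitor gene, gave 16 reads in control 2 (1.19 RPM, exact 95% Poisson interval 0.678 to 1.93) and none in the other 3 libraries. A count of 0 allows up to 3 reads, a one-sided limit unlike the interval above, which is 0.163 RPM in control 1, 0.172 in mutant 1 and 0.202 in mutant 2. It was not tested. That same library had 822 RPM of Lyz2, the macrophage lysozyme gene, where the others had 33.9 (control 1), 20.8 (mutant 1) and 10.4 RPM (mutant 2), and the part of macrophages in it was not tested.

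Akap12 encodes a large scaffold, also known as gravin, that holds protein kinase A near the plasma membrane and near beta-adrenergic receptors. It stood at 337 RPM (control 1), 245 (control 2), 511 (mutant 1) and 450 RPM (mutant 2). Both mutants were above both controls. The means were 291 ± 65.1 and 481 ± 43.2 RPM (SD, n = 2), a log2 fold change of 0.74 (SE 0.25, 95% interval 0.10 to 1.38, limma adjusted p = 0.228). The value lay between 0.51 and 0.97 over 15 alternatives, at 0.97 without control 1 and 0.51 without control 2. Akap12 and Pkia were the 2 members that stood lower in control 2 than in control 1, and the other 8 were higher in control 2.

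**Figure D3:**
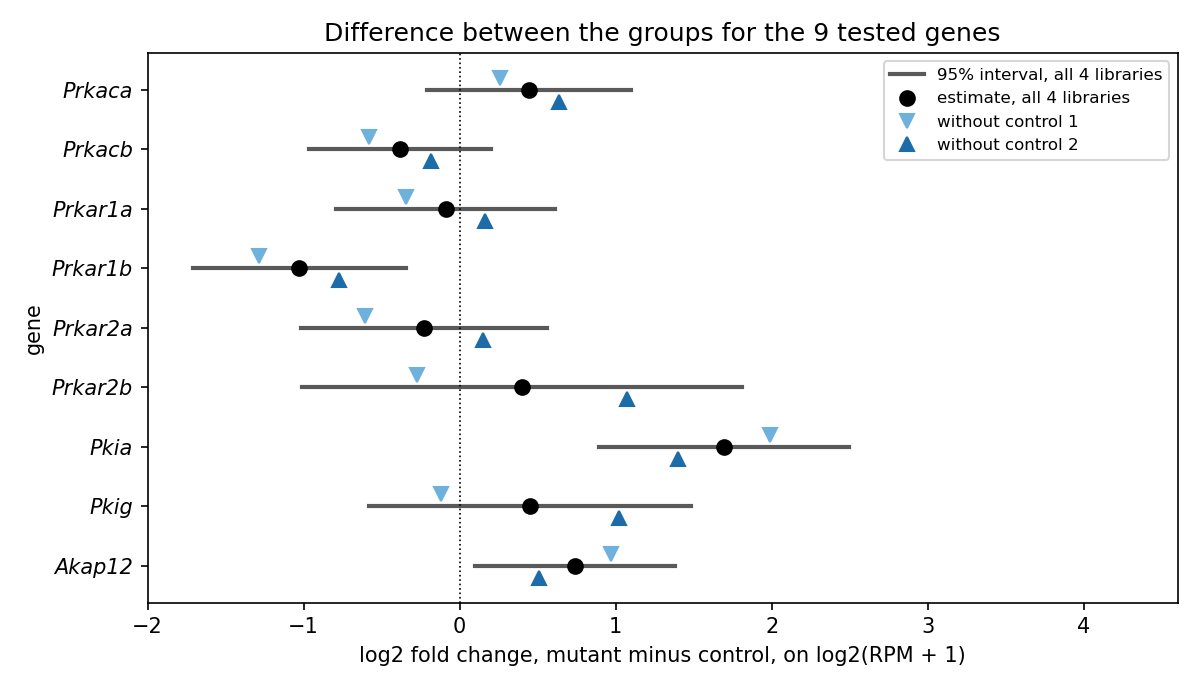
Log2 fold change of the mutants against the controls (horizontal axis, log2(RPM + 1) scale) for the 9 tested genes (vertical axis), with the 95% interval of the fit to all 4 libraries as a bar and the value after leaving out control 1 or control 2 as triangles. The intervals of Pkia, Prkar1b and Akap12 lie away from 0 before adjustment, and the triangles of Prkar1a, Prkar2a, Prkar2b and Pkig fall on both sides of it.

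The groups did not overlap for 5 of the 9 tested members, with Prkaca, Pkia and Akap12 higher and Prkacb and Prkar1b lower in the mutants. This is near the background, since 51.8% of all tested genes had groups that do not overlap, and is therefore no result about these genes. After TMM or median-of-ratios scaling, a check added after the values were seen, it was 4 of 9, without Prkaca. Leaving out control 1 gave 3 called members (Pkia, Prkar1b and Akap12), where 20.7% of all genes were called, and leaving out control 2 gave 2 (Pkia and Pkig), where 16.0% were. Without either mutant library no gene of the 11638 was called.

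A CREB site is a short element through which the kinase is known to act on genes, and its letters were looked for near the starts of the members. In windows from 250 bases before to 50 after a start (RefSeq, GRCm38.p6), 8 of the 10 members matched, with 24 windows. The palindrome TGACGTCA, which reads the same on both strands, was in 2 windows of Prkar1a and in 1.79% of all 32851 windows.

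Other genes of the pathway were read from 9 lists, which hold 104 tested genes besides the members. Of these 5 were higher and 2 lower at the threshold (limma, against 1.73% of all tested genes higher and 0.576% lower), and 97 did not pass. Hedgehog genes were 4 of the 5, and their rise was known when the lists were chosen. The count of higher genes is therefore no result about the lists. The calls fell in the lists of phosphodiesterases, CREB-responsive genes and Hedgehog genes, and the other 6 lists held none. Lists were described by counts and medians, with 0.08 as the median of all tested genes.

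Of 20 tested genes of other anchor proteins 0 were called (limma; 3 at an unadjusted p below 0.05, 0 by edgeR and 2 by DESeq2), with a median log2 fold change of 0.43. Of the 20, 7 stood higher in both mutants than in both controls and 0 stood lower, where 30.6% and 21.1% of all tested genes did. The count of higher genes is near the share of all genes. The nearest to the threshold was Wasf1, the gene of an actin regulator that binds the kinase, at 13.2 and 11.3 RPM in the control libraries and 35.2 and 33.9 RPM in the mutants (log2 fold change 1.42, SE 0.26, adjusted p = 0.0693). Akap8l, another gene of this list, stood at 28.6 and 24.1 RPM in the control libraries and 54.0 and 54.3 RPM in the mutants (log2 fold change 1.02, limma adjusted p = 0.111).

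Upstream of the kinase, 0 of 8 tested adenylyl cyclases were called (limma; 2 at an unadjusted p below 0.05, 0 by edgeR and 1 by DESeq2; median 0.16). Adcy1, a calcium-responsive cyclase gene, stood at 4.93 and 0.222 RPM in the control libraries and 26.5 and 20.1 RPM in the mutants (log2 fold change 3.16, SE 0.78, adjusted p = 0.13), and it was called in 4 of 15 alternatives. Adcy7 stood at 83.9 and 141 RPM in the control libraries and 60.0 and 48.0 RPM in the mutants (log2 fold change -1.01, adjusted p = 0.202). Of 13 tested phosphodiesterases, the enzymes that break down cyclic AMP, 1 rose, 2 fell and 10 did not pass, with a median of -1.18 (limma; 8 at an unadjusted p below 0.05, 2 called by edgeR and 7 by DESeq2). In both mutants 7 of the 13 stood lower than in both controls and 3 higher, where 21.1% and 30.6% of all tested genes did. Pde3a rose from 29.7 and 34.3 RPM to 176 and 142 (log2 fold change 2.28, SE 0.23, adjusted p = 0.0229). Pde3b, its close relative, fell from 36.4 and 37.3 RPM to 3.61 and 2.90 (log2 fold change -3.16, SE 0.29, adjusted p = 0.0211). Pde4b fell from 17.6 and 35.01 RPM to 3.15 and 1.89 (log2 fold change -2.90, SE 0.45, adjusted p = 0.0491), and kept its call in 6 of 15 alternatives, against 13 of 15 for Pde3a and for Pde3b.

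Beside the kinase, 0 of 7 tested genes of other cyclic nucleotide sensors and related kinases were called (limma; 1 at an unadjusted p below 0.05, 0 by edgeR and 1 by DESeq2; median 0.12). The channel gene Hcn4 stood at 4.12 and 1.19 RPM in the control libraries and 0 and 0.135 RPM in the mutants (adjusted p = 0.196), and the cyclic GMP kinase gene Prkg1 at 30.9 and 14.6 against 40.8 and 34.2 RPM (adjusted p = 0.387). Of 10 tested phosphatases and phosphatase inhibitors, whose products reverse or protect the kinase's work, 0 were called (limma; 1 at an unadjusted p below 0.05, 0 by edgeR and 1 by DESeq2; median 0.02). Ppp2r5d, a phosphatase subunit that the kinase is known to act on, stood at 98.3 and 94.8 against 160 and 201 RPM (log2 fold change 0.89, adjusted p = 0.126). Arpp19 stood at 103 and 142 against 83.4 and 84.8 RPM (adjusted p = 0.338). Of 11 tested maturation, degradation and folding partners 0 were called (limma; 0 at an unadjusted p below 0.05, 0 by edgeR and 0 by DESeq2; median -0.06). Nmt2, whose product attaches myristate to proteins, and the ubiquitin enzyme gene Ube2d1 were nearest (adjusted p = 0.351 and 0.374).

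Downstream, 0 of 13 tested genes of the CREB family and its coactivators were called (limma; 1 at an unadjusted p below 0.05, 0 by edgeR and 0 by DESeq2; median 0.11). The coactivator gene Crtc1 stood at 13.2 and 11.9 RPM in the control libraries and 24.1 and 24.7 RPM in the mutants (log2 fold change 0.91, adjusted p = 0.174), and the kinase gene Sik3 at 84.9 and 81.1 against 55.8 and 60.9 RPM (adjusted p = 0.288). Of 13 tested CREB-responsive genes 1 fell, the Pde4b named above, 0 rose and 12 did not pass, with a median of -0.33 (limma; 2 at an unadjusted p below 0.05, 0 called by edgeR and 2 by DESeq2). Rgs2, which encodes a brake on G proteins, stood at 2.76 and 16.02 RPM in the control libraries and 61.2 and 65.7 RPM in the mutants (log2 fold change 3.01, SE 0.72, adjusted p = 0.121), and it was called in 4 of 15 alternatives.

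Of 13 tested Hedgehog genes, the arm that the kinase is known to restrain, 4 rose, 0 fell and 9 did not pass, with a median of 0.38 (limma; 5 at an unadjusted p below 0.05, 4 called by edgeR and 5 by DESeq2). The 4 were Hhip and Ptch1, which encode a Hedgehog-binding inhibitor and the Hedgehog receptor, and the transcription factor genes Gli1 and Gli2. Their rise in these libraries was known when the list was chosen. Gli2, one of the factors that the kinase phosphorylates, rose from 3.68 and 5.49 RPM to 52.4 and 60.9 (log2 fold change 3.38, SE 0.31, adjusted p = 0.021). The same 4 genes were called in 13 of 15 alternatives each, the exceptions being those that left out a mutant library. No difference in size between these genes and the subunit genes was tested.

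**Figure D4:**
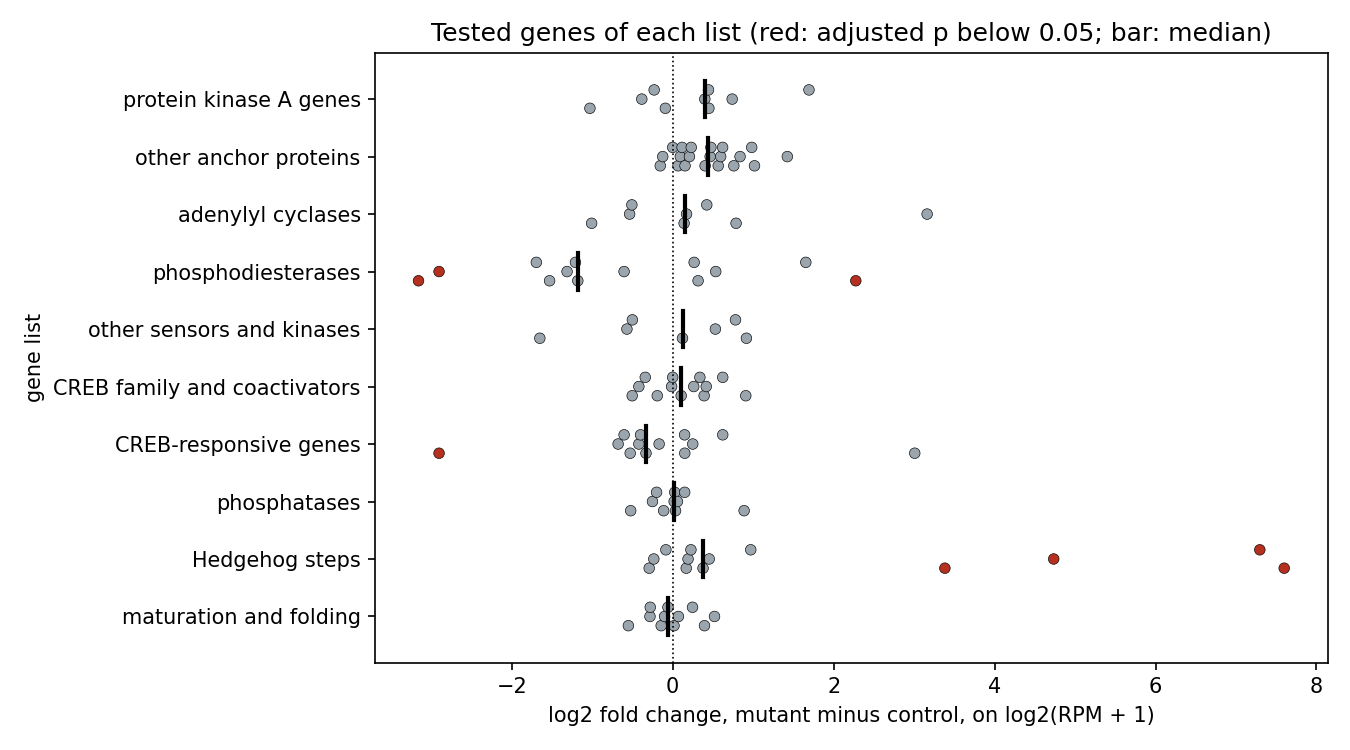
Log2 fold change, mutants against controls (horizontal axis, log2(RPM + 1) scale), of each tested gene in the protein kinase A set and in the 9 lists (vertical axis), with genes at an adjusted p below 0.05 in red and the median of each list as a bar. The 9 tested genes of the kinase lie between -1.03 and 1.69 with none in red, and the red points are 3 phosphodiesterases, Pde4b again among the CREB-responsive genes, and 4 Hedgehog genes.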

How the data were processed

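RNA of 4 samples was measured with the Ion AmpliSeq mouse panel, 1 short amplicon per gene, per the labels' protocols. The authors deposited RPM, reads scaled to the total of the library. The sources used here give no aligner, counter, genome build or filter. Symbols came from amplicon names, since 27 gene names had become dates. Of the nonzero RPM values 100% are whole reads within 0.01 read, and these gave the depths. A value is 1 amplicon's, and a gene that takes more reads lowers the rest. Genes at 1 RPM or more in at least 2 libraries were tested with limma 3.58.1 (R 4.3.3, with a variance trend). The two-sided tests used log2(RPM + 1) and a threshold of 0.05, adjusted over all tested genes. This scale understates changes of genes with low values.

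Alternatives were other pseudocounts, filters and scalings, a replicate block, leaving out the variance trend or a library, and edgeR 4.0.16 and DESeq2 1.42.0 on the whole reads. The text names all 10 members, Prkx and, per list, called genes (up to 4) or the 2 with the smallest p. Thy1, Pdgfra, Ly6a, Dpp4, Cd34, Col1a1, Col1a2, Lpl, Cebpa, Pparg, Plin4, Tnnt3, S100b, Tubb3, Xist and Ddx3y were picked after their values were seen. Members and lists were chosen with earlier results of these data known. Marker lists covered mesenchymal progenitors, osteoblasts, adipocytes, macrophages, endothelial cells, skeletal muscle, neurons and Schwann cells, keratinocytes and lymphocytes. Their sums not given elsewhere ran from 10.4 to 87.3 RPM (endothelial), 0.459 to 1.28 (keratinocyte) and 0.074 to 0.163 (lymphocyte).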

Additional observations from a re-analysis of the deposited data

How the results depend on the processing

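With 2 libraries a group, every test here has few degrees of freedom, and where a library is left out its lone partner is assumed to vary like the other group. Over all tested genes, 268 were called, with 74 under no filter on low values, 93 with edgeR, 1091 with DESeq2, 424 under the replicate block and 0 to 2411 with 1 library left out. The called members were 0, with 2 under DESeq2 and 0 to 3 with 1 library left out. The called genes of the pathway lists were 7, with 18 under DESeq2 and 0 to 33 with 1 library left out. The causes were not tested. Of 134 values recomputed for the 9 tested members, 123 kept their direction and side of the threshold, 7 became called and 4 changed sign, each with 1 control left out: Prkar1a (0.16, range -0.34 to 0.16 on leaving out 1 library) and Prkar2a (0.15, range -0.61 to 0.15) without control 2, and Prkar2b (-0.27, range -0.27 to 1.07) and Pkig (-0.12, range -0.12 to 1.02) without control 1. The ratios between paired genes kept their direction in all alternatives run, with 0.60 to 1.07 (Prkaca to Prkacb), 0.87 to 1.05 (Prkar1a to Prkar1b), -2.45 to -0.18 (Prkar2a to Prkar2b) and 0.43 to 2.23 (Pkia to Pkig) on leaving out 1 library. The replicate numbers are not said to pair libraries, and deviations of same-numbered libraries correlated at 0.164 across genes; the replicate block called 0 members, and it called Adcy1 and Rgs2, as did DESeq2 and leaving out either control. The median log2 fold change of all genes was 0.08 in the main fit. It was -0.000129 with median-of-ratios scaling, 0.013 with TMM scaling, -0.03 with quantile scaling, -0.019 with edgeR and -0.033 with DESeq2. The 0.08 was not subtracted from the member values. Depth limits Prkar2b and Pkib, with at most 32 reads a library.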
